A study of Macaca fascicularis with 16 samples.

Results

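GREB1, PGR, TFF3, RERG, RBBP8, IL17RB, SUSD3, CA12, AGR3 and MYB are 10 genes long used as readouts of estrogen receptor activity, and their expression was followed here in mammary tissue under 4 hormone regimens. Every probe set of the deposited array table whose platform annotation gave a single symbol among these 10 was taken, which made 17 probe sets of 52865, for 10 of the 14133 genes that the annotation names. The samples were total RNA from mammary tissue of 16 cynomolgus macaques (Macaca fascicularis), all female, postmenopausal and ovariectomized, with 1 array and 1 animal per sample and 4 animals per group. The groups were tibolone at 0.2 mg/kg (also labelled OD14-HIGH), conjugated equine estrogens at 0.042 mg/kg with medroxyprogesterone acetate at 0.167 mg/kg (CEE+MPA), conjugated equine estrogens alone at 0.042 mg/kg (CEE), and a control group that received no treatment. CEE is an estrogen mixture from the urine of pregnant mares, medroxyprogesterone acetate is a synthetic progestin, and tibolone is a steroid whose metabolites act on steroid hormone receptors, those of estrogen and progesterone among them. All 4 groups lacked ovaries, so the control group had no ovarian estrogen. The doses of tibolone and CEE differ, and the length of treatment is not given in the sources used here.

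Estrogen receptor alpha is a ligand-activated transcription factor that binds DNA at estrogen response elements, often beside the pioneer factor FOXA1, and recruits coactivators to nearby and distant genes. In the mammary gland it is found in a fraction of the luminal cells. The progesterone receptor is itself an estrogen-induced gene and, when bound by a progestin, can alter the output of the estrogen receptor at shared sites. Most of the 10 genes were defined as estrogen targets in human breast cancer cell lines or tumours that carry the receptor, not in normal macaque tissue. The labels name whole mammary tissue and no sorted cell type, so the signals come from all cells of the sample. A lower signal from fewer cells of one type and from less RNA per cell cannot be told apart in such samples.

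GREB1, PGR, TFF3, RBBP8, SUSD3 and AGR3 had 1 probe set each, IL17RB and MYB had 2, RERG had 3 and CA12 had 4. The deposited values were linear signals, and tests used limma on log2(signal + 16), with p-values adjusted by Benjamini and Hochberg over all 28704 probe sets that exceeded a signal of 60.2 on at least 4 of the 16 arrays. An adjusted p under 0.05 is called a change. The ± after a log2 fold change gives the standard error from limma, and the ± after a signal gives the SD over 4 animals. Of the 17 probe sets, 15 passed that filter, and the remaining 2, 1 of RERG and 1 of MYB, were below it. GREB1 exceeded the filter signal on 4 tibolone, 2 CEE+MPA, 4 CEE and 0 control arrays. PGR exceeded it on 1 tibolone, 0 CEE+MPA, 3 CEE and 0 control arrays. Both genes were thus tested only because treated arrays were bright, and their entry into the counts below is not independent of treatment. Signals of different probe sets are not set against each other, because probes differ in brightness at equal RNA.

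The arrays also differed in spike-in and cell type marker signals, in part along with the groups. The bacterial spike-in controls dap and thr divided them into a low set of 6 arrays, 2 each of CEE+MPA, CEE and control, and a high set of 10, which held all 4 tibolone arrays and 2 of each other group. Tibolone can therefore be compared within a set only in the high one, and even there its arrays stood apart. The mean log2 spike-in signal was 6.89 to 7.07 on the tibolone arrays and 7.25 to 7.72 on the other arrays of the high set. Spike-in level and tibolone cannot be told apart, in that set or over all arrays. Skeletal muscle markers were measured for 6 of 10 listed genes, none at 0 on any array, and their mean log2 deviation ranged from -1.22 to 2.83 in tibolone, -1.49 to 1.66 in CEE+MPA, -1.52 to -1.11 in CEE and -1.12 to 3.21 in control animals. It exceeded 1 on tibolone replicates 2 and 3, CEE+MPA replicate 1 and control replicate 1. Luminal epithelial markers, 17 of 20 measured and none at 0, ranged from -0.53 to 0.35 in tibolone, -0.03 to 0.04 in CEE+MPA, -0.05 to 0.16 in CEE and -0.19 to 0.07 in control animals, and these ranges overlap in every pair. Adipocyte markers, 6 of 8 measured, ranged from -0.94 to 1.14 in tibolone, -1.28 to 0.05 in CEE+MPA, -1.19 to 0.29 in CEE and -0.36 to 0.86 in control animals. Lymphoid and skin lists had 1 and 2 measured genes and are not described further.

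CEE raised GREB1 about 8.89-fold and RBBP8 2.51-fold over control on the log2(signal + 16) scale, and no probe set of the 10 genes was called lower. For GREB1 the log2 fold change was 3.70 when 1 was added in place of 16 and 2.26 when 64 was added. GREB1 codes for an estrogen-induced cofactor of the estrogen receptor, and RBBP8 for the DNA end resection protein CtIP. These 2 of 15 probe sets stood against 0.0418% of all tested probe sets that were called higher. On 4 of 15, those of GREB1, PGR, TFF3 and RBBP8, every CEE array was above every control array, which held for 4.21% of all tested probe sets. The median log2 fold change of the 10 genes, each represented by its brightest tested probe set, was 0.89, against 0.01 over 10452 genes, and 8 of the 10 were positive, against 52.1% of all genes. The 10 genes were chosen with earlier results of these data known, and GREB1 and PGR passed the filter only through treated arrays. These shares and medians, here and in the comparisons below, therefore describe the list and are not an independent test of it.

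Under CEE+MPA, GREB1 rose by 0.86 ± 0.24 on the log2 scale over control and RERG, a RAS-like estrogen-regulated growth inhibitor, fell. The call was higher for 1 of 15 probe sets, against 1.95% of all tested, and lower for 2 of 15, both of RERG, against 4.38%. The same 3 probe sets were the ones whose CEE+MPA and control arrays did not overlap, 1 higher against 6.65% of all and 2 lower against 9.42%. The median of the 10 genes was 0.03, against 0.01 over all genes. Median centring of the arrays changed the split of all calls in this comparison to 900 of 1793 lower, against 1258 of 1819 as scaled by the authors,, and 1 member probe set was higher and 2 were lower in both. With quantile normalization 0 were higher and 2 lower, since GREB1 was at 0.89 (limma, adjusted p = 0.0570).

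Tibolone raised GREB1 4.41-fold over control on the same scale, a size that rests on the added constant, with a log2 fold change of 2.63 when 1 was added and 1.40 when 64 was added. No other probe set of the 10 genes passed the test. That is 1 of 15, against 0.0244% of all tested probe sets called higher. GREB1 passed the filter only through treated arrays, so this share is not independent of treatment. GREB1 was also the only one whose 4 tibolone arrays all lay above the 4 control arrays, against 1.9% of all tested. PGR and SUSD3 had log2 fold changes of 1.05 ± 0.48 and 1.11 ± 0.39 that missed the threshold (limma, adjusted p = 0.913 and 0.864). The median of the 10 genes was 0.24, against 0.01 over all genes.

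**Figure D1:**
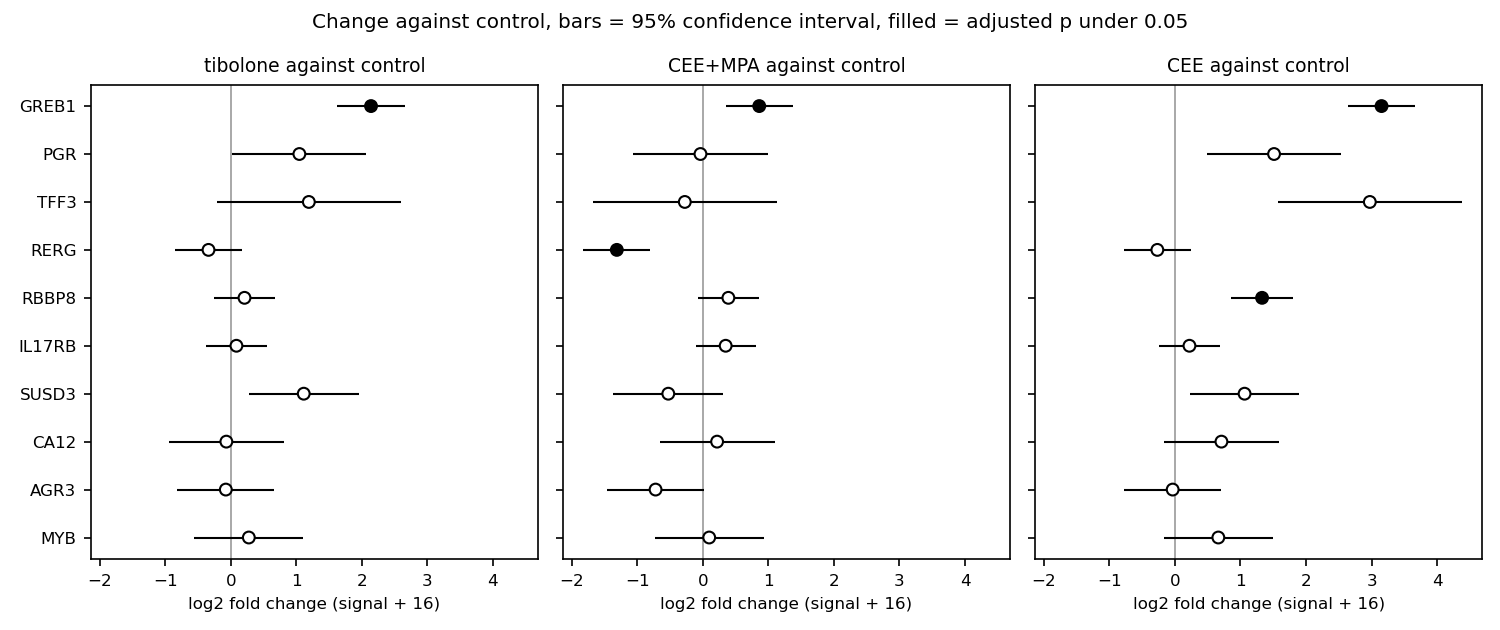
The log2 fold change of signal + 16 is plotted on the horizontal axis for each of the 10 genes in tibolone, CEE+MPA and CEE against control, with bars for the 95% confidence interval of the limma model and filled points for an adjusted p under 0.05. GREB1 was filled in all 3 panels at 2.14, 0.86 and 3.15, RERG at -1.31 under CEE+MPA and RBBP8 at 1.33 under CEE.

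Adding MPA to the same CEE dose lowered GREB1 to 67.1 ± 23.2, against 394 ± 117 with CEE alone (SD, n = 4 each). GREB1 was the single call among 15 probe sets, against 0.0209% of all tested called lower. On 7 of 15 probe sets, those of GREB1, PGR, TFF3, RBBP8, SUSD3 and both tested ones of RERG, every CEE+MPA array was below every CEE array, which held for 3.17% of all tested probe sets. Basal and myoepithelial markers, 6 of 12 measured, did not overlap between these groups either, with mean log2 deviations of -1.06 to -0.22 in CEE+MPA and 0.03 to 0.12 in CEE animals, and their part in these differences was not tested. The median of the 10 genes was -0.99, against 0.00392 over all genes, and 9 of the 10 were negative. The 4 CEE arrays enter both this comparison and that of CEE with control, so the values of the 2 comparisons are not independent of each other.

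Against CEE, tibolone gave 0 calls among the 15 probe sets by limma, and 0.00697% of all tested probe sets were called in either direction. At an unadjusted p under 0.05 there were 3 of the 15, and 3422 of all 28704 tested. GREB1 and RBBP8 were lower on every tibolone array than on every CEE array, 2 of 15 against 2.6% of all tested. Against CEE+MPA, tibolone raised GREB1, SUSD3 and both tested probe sets of RERG, 4 of 15, against 3.78% of all tested called higher. The same 4 were those on which all tibolone arrays lay above all CEE+MPA arrays, against 7.56% of all tested. Median centring moved the median of all tested probe sets in this comparison to -0.07, against 0.04 as scaled by the authors, and the split of all calls to 589 of 2132 higher, against 1086 of 1820. With it, 3 member probe sets were called, all higher. No call was made for a member when tibolone replicate 2 was left out, where calls over all probe sets numbered 209 in place of 1820, and 2 were made without CEE+MPA replicate 3, where they numbered 413. Fibroblast markers had -0.05 to 0.33 in tibolone and -0.82 to -0.13 in CEE+MPA animals, and endothelial markers -0.15 to 0.49 in tibolone and -0.39 to -0.23 in CEE+MPA animals. Both lists were thus separate in this comparison too, and their part in the rises was not tested. Without the 4 arrays whose skeletal muscle mean exceeded 1, a choice made after seeing the data, no member passed in tibolone against CEE+MPA or against control, and neither did any of the 28704 probe sets in limma (2846 and 2205 at an unadjusted p under 0.05).

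**Figure D2:**
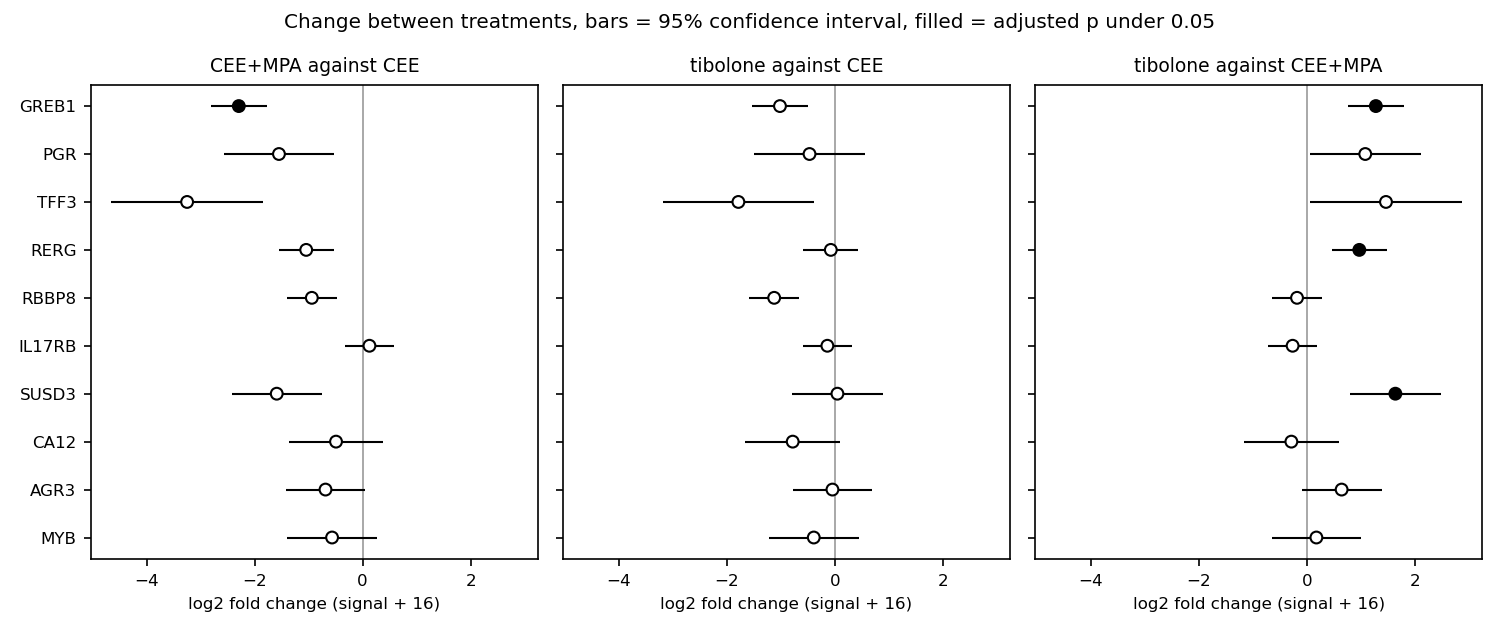
The log2 fold change of signal + 16 is plotted for each gene in CEE+MPA against CEE, tibolone against CEE and tibolone against CEE+MPA, with 95% confidence intervals and filled points for an adjusted p under 0.05. GREB1 alone was filled in the first panel at -2.29, no gene in the second, and GREB1, RERG and SUSD3 in the third at 1.28, 0.97 and 1.64.

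GREB1 binds the estrogen receptor in human breast cancer cells and is among the genes that respond most directly to estrogen there. Its signal was 209, 222, 149.8 and 150.4 in the 4 tibolone animals, 69.9, 97.7, 57.8 and 43.1 in the 4 CEE+MPA animals, 431, 514, 398 and 234 in the 4 CEE animals and 41.4, 21.7, 23.3 and 30.1 in the 4 control animals. The groups did not overlap in any pair, in the order CEE, tibolone, CEE+MPA and control from high to low. The margins were narrow in 2 pairs, at 222 in the highest tibolone animal and 234 in the lowest CEE animal, and at 43.1 in the lowest CEE+MPA animal and 41.4 in the highest control animal.

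In limma, GREB1 was higher than in control by 2.14 ± 0.24 with tibolone (adjusted p = 0.00163), by 0.86 ± 0.24 with CEE+MPA (adjusted p = 0.0466) and by 3.15 ± 0.24 with CEE (adjusted p = 2.2e-05). Control signals of GREB1 were below the filter signal on all 4 arrays, and the added 16 makes these fold changes understate the ratio of signals. In limma it fell by 2.29 ± 0.24 with CEE+MPA relative to CEE (adjusted p = 0.000645) and was higher with tibolone than with CEE+MPA by 1.28 ± 0.24 (adjusted p = 0.0130). The difference between tibolone and CEE was -1.01 ± 0.24 and missed the threshold over all probe sets (limma, adjusted p = 0.218). Every tibolone array was below every CEE array on GREB1, without a call. The rise of GREB1 with CEE passed the test in both spike-in sets. It was 3.52 within the low spike-in set and 2.79 within the high set, with adjusted p = 0.00297 and 0.0215 in limma. Within the high set, the GREB1 differences of tibolone from control (2.08, adjusted p = 0.0627), of tibolone from CEE+MPA (1.10, adjusted p = 0.0628) and of CEE+MPA from CEE (-1.81, adjusted p = 0.237) missed the threshold in limma. The low set gave -2.77 for CEE+MPA against CEE (limma, adjusted p = 0.0406). The directions were the same in both sets, with 2 animals per group in each set except tibolone. The small rise with CEE+MPA was 0.74 and 0.98 in the low and high sets (adjusted p = 0.516 and 0.0928), and it missed the threshold when any array but CEE+MPA replicate 4 was left out (highest adjusted p 0.145, limma). Without the 4 arrays of high skeletal muscle signal, GREB1 kept log2 fold changes of 2.24 for tibolone against control and 1.29 against CEE+MPA, with adjusted p = 0.141 and 0.252 in limma. Without tibolone replicate 2, GREB1 in tibolone against CEE+MPA was at 1.19 and missed the threshold (limma, adjusted p = 0.0517).

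**Figure D3:**
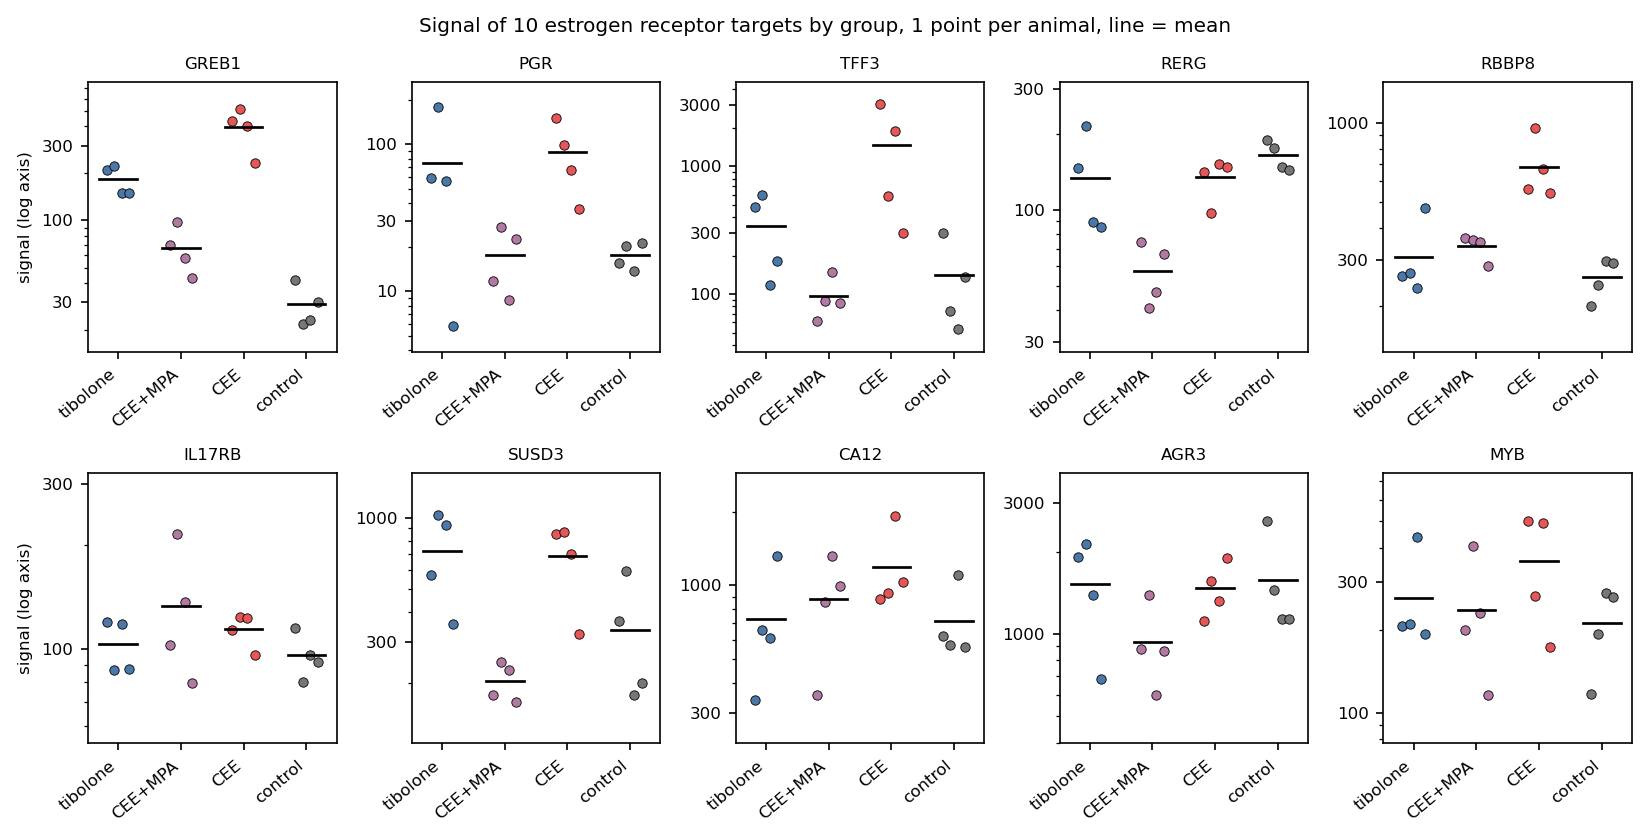
Signal on a log axis is plotted for the brightest tested probe set of each gene, with 1 point per animal and a line at the mean, in tibolone, CEE+MPA, CEE and control animals. The 4 groups of GREB1 are separate, the CEE+MPA animals of SUSD3 lie at 167 to 247 below all tibolone and CEE animals, and the groups of IL17RB, CA12, AGR3 and MYB overlap.

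PGR codes for the progesterone receptor, the nuclear receptor on which MPA acts, and is the estrogen target most used in breast pathology. Its signal was 59.1, 179, 56.6 and 5.80 in the tibolone animals, 11.7, 27.5, 8.75 and 22.6 in the CEE+MPA animals, 152, 98.8, 66.9 and 36.6 in the CEE animals and 15.6, 20.3, 13.7 and 21.3 in the control animals. All CEE animals were above all CEE+MPA and all control animals, and the CEE+MPA and control groups overlapped. In tibolone, 3 animals were above every control animal and tibolone replicate 4 was below them all, at the lowest PGR signal of the 16 arrays. The log2 fold change was 1.51 ± 0.48 for CEE against control, with a 95% confidence interval of 0.49 to 2.54, and -1.55 ± 0.48 for CEE+MPA against CEE (limma, adjusted p = 0.241 and 0.438). Tibolone differed from CEE+MPA by 1.08 ± 0.48 (limma, adjusted p = 0.175), and by 1.64 when tibolone replicate 4, the dimmest, was left out (adjusted p = 0.0147). Without tibolone replicate 2, the brightest, the difference was 0.59, and without the 4 arrays of high skeletal muscle signal it was 0.22 (limma, adjusted p = 0.450 and 0.918). The PGR difference of CEE from control was 2.10 when 1 was added to the signals and 0.85 when 64 was added, against 1.51 with 16. Most PGR signals were dim, below the filter signal on 12 of 16 arrays, and no PGR difference was called over all animals.

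RBBP8 works with the MRE11 complex in trimming broken DNA ends, and its transcript tracks estrogen receptor activity in human breast tumours. It had 261, 267, 234 and 475 in the tibolone animals, 364, 358, 353 and 286 in the CEE+MPA animals, 559, 963, 670.3 and 540.4 in the CEE animals and 201, 242, 298 and 291 in the control animals. Every CEE animal was above every animal of the other 3 groups. RBBP8 was higher with CEE than in control by 1.33 ± 0.22 (limma, adjusted p = 0.0346), and the differences of CEE+MPA from CEE (-0.94 ± 0.22) and of tibolone from CEE (-1.12 ± 0.22) missed the threshold (adjusted p = 0.261 and 0.145). The CEE call ended when any 1 of 7 of the 8 arrays was left out, all but control replicate 4, with adjusted p up to 0.150 and log2 fold changes of 1.15 to 1.43. It also ended with no filter (adjusted p = 0.0638), with the skeletal muscle mean as a covariate (1.15, adjusted p = 0.134) and within each spike-in set (1.27 and 1.39, adjusted p = 0.549 and 0.179, limma). The same call ended with the luminal marker mean as a covariate and without the 4 arrays of high skeletal muscle signal. Without tibolone replicate 4, the highest tibolone animal, RBBP8 was lower with tibolone than with CEE by a log2 difference of -1.34 that passed (limma, adjusted p = 0.0219).

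MYB codes for a transcription factor whose elongation is released by estrogen in human breast cancer cells. The bright probe set ranged from 193 to 439 in tibolone, 116 to 404 in CEE+MPA, 174 to 500.2 in CEE and 117 to 274 in control animals, and all groups overlapped. Its largest log2 fold change was 0.66 ± 0.39, for CEE against control, with a 95% confidence interval of -0.17 to 1.49 (limma, adjusted p = 0.510). The second MYB probe set ranged from 11.9 to 73.1 over the 16 arrays and was not tested.

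RERG codes for a small GTPase that slows growth when expressed in human breast cancer cells, where estrogen raises its transcript. On its brightest probe set the signal was 146, 215, 89.4 and 85.7 in the tibolone animals, 74.7, 41.0, 47.3 and 66.6 in the CEE+MPA animals, 141, 97.1, 152 and 148 in the CEE animals and 189.5, 175, 148 and 144 in the control animals. All 4 CEE+MPA animals were below all other 12, whereas the tibolone, CEE and control groups overlapped. The second tested probe set gave the same separation, at 24.4 to 52.8 in CEE+MPA, against 70.6 to 142 in tibolone, 91.5 to 132 in CEE and 109 to 159 in control animals. These 2 probe sets share a design number and belong to 1 gene, so they are not independent of each other. The third was too dim to be tested. It had 24.6 to 89.4 in tibolone, 9.07 to 32.4 in CEE+MPA, 34.1 to 57.2 in CEE and 36.7 to 85.0 in control animals. On this probe set the tibolone and CEE+MPA animals overlapped.

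RERG fell by 1.31 ± 0.24 with CEE+MPA relative to control on the brightest probe set and by 1.46 ± 0.20 on the second (limma, adjusted p = 0.00849 and 0.00304). Fitted without a filter, the third gave -1.01 ± 0.31 in limma (adjusted p = 0.0985). CEE alone left RERG at a log2 difference of -0.27 ± 0.24 from control, with a 95% confidence interval of -0.78 to 0.24 (limma, adjusted p = 0.683). Between CEE+MPA and CEE the 2 tested probe sets differed by -1.04 ± 0.24 and -1.14 ± 0.20 and missed the threshold (limma, adjusted p = 0.252 and 0.0915). Tibolone was above CEE+MPA by 0.97 ± 0.24 and 1.07 ± 0.20 (limma, adjusted p = 0.0318 and 0.0137). On the brightest probe set this call ended when CEE+MPA replicate 2 or 3 or tibolone replicate 1 or 2 was left out (0.74 to 0.91, limma adjusted p of 0.0589 to 0.0952), and with median centring (0.87, adjusted p = 0.0501). That probe set kept the call in 9 of 19 alternatives in all. The second probe set lost it only without tibolone replicate 2 among single arrays (0.93, limma adjusted p = 0.0531). Without the 4 arrays of high skeletal muscle signal the values were 0.94 and 0.91 (limma, adjusted p = 0.279 for both). The fall of RERG against control was -0.91 within the low spike-in set and -1.72 within the high set (limma, adjusted p = 0.422 and 0.0206).

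Markers of other cell types were also lower in the CEE+MPA animals, in which RERG was low. The mean log2 deviation of basal and myoepithelial markers was -1.06 to -0.22 in CEE+MPA and 0.16 to 0.43 in control animals. That of fibroblast markers, 8 of 9 measured, was -0.82 to -0.13 in CEE+MPA and 0.31 to 0.72 in control animals. Endothelial markers, 6 of 7 measured, had -0.39 to -0.23 in CEE+MPA and -0.01 to 0.52 in control animals. Myeloid markers, 6 of 7 measured, had -0.27 to 0.11 in CEE+MPA and 0.29 to 0.54 in control animals. None of these markers was at 0 on any array, and their part in the fall of RERG was not tested. In CEE animals, where GREB1 and RBBP8 were high, fibroblast markers had -0.38 to 0.05, against 0.31 to 0.72 in control animals. Myeloid markers had -0.67 to 0.09 in CEE and 0.29 to 0.54 in control animals, and basal and myoepithelial markers 0.03 to 0.12 in CEE and 0.16 to 0.43 in control animals. The part of these 3 lists in the rises was not tested.

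**Figure D4:**
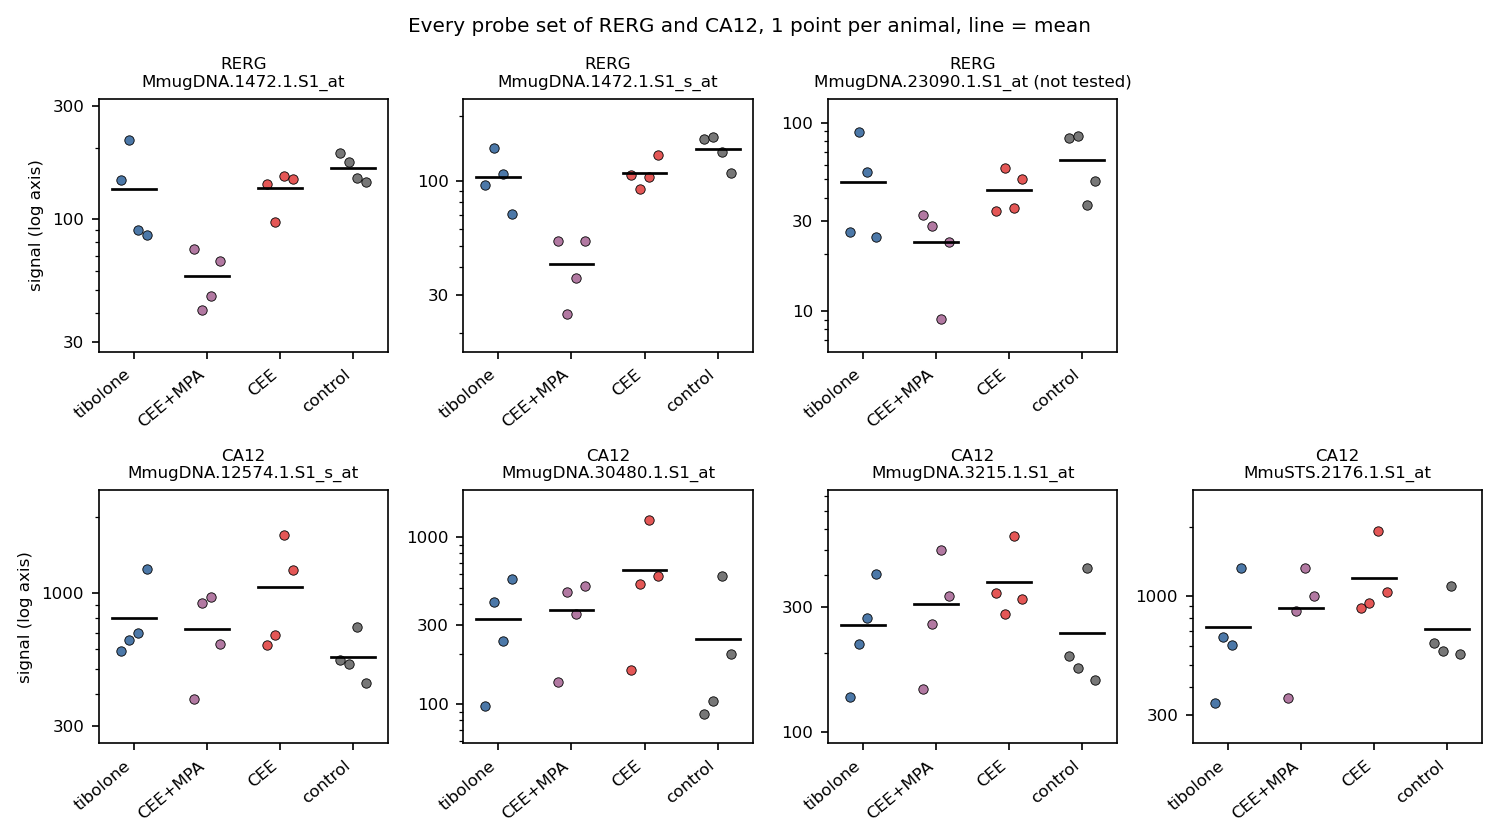
Signal on a log axis is plotted for the 3 probe sets of RERG and the 4 of CA12, with 1 point per animal and a line at the mean in tibolone, CEE+MPA, CEE and control animals. On both tested RERG probe sets the 4 CEE+MPA animals lie below all others, and on all 4 CA12 probe sets control replicate 3 is the highest control animal.

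TFF3 codes for trefoil factor 3, a small secreted peptide of mucosal surfaces that is abundant in receptor-positive breast tumours. Its signal was 479, 593, 118 and 182 in the tibolone animals, 62.0, 88.7, 149.7 and 85.0 in the CEE+MPA animals, 3062, 581, 1899.6 and 302 in the CEE animals and 298, 73.2, 52.9 and 136 in the control animals. CEE animals were above all control animals only just, at 302 in the lowest CEE animal and 298 in the highest control animal, and above all CEE+MPA animals, whose highest was 149.7. The CEE animals differed among themselves by more than those of any other group on this gene, and the SD of CEE was 1274 around a mean of 1461. The log2 fold change was 2.97 ± 0.66 for CEE against control and -3.25 ± 0.66 for CEE+MPA against CEE, and neither passed (limma, adjusted p = 0.103 and 0.177). Without CEE replicate 4, the lowest CEE animal, the second difference was -3.81 and passed (limma, adjusted p = 0.0487). Tibolone stood between, at -1.78 ± 0.66 from CEE and 1.19 ± 0.66 from control (limma, adjusted p = 0.323 and 0.913).

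AGR3 codes for a relative of protein disulfide isomerases that resides in the secretory pathway. It ranged from 684 to 2128 in tibolone, 596 to 1387 in CEE+MPA, 1118 to 1891 in CEE and 1131 to 2585 in control animals. In CEE+MPA, 3 of the 4 animals were below every CEE and control animal. The differences of CEE+MPA from control (-0.72 ± 0.35) and from CEE (-0.69 ± 0.35) did not pass (limma, adjusted p = 0.218 and 0.663). CEE differed from control by -0.03 ± 0.35, with a 95% confidence interval of -0.77 to 0.70.

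SUSD3 codes for a cell surface protein with a sushi domain linked to estrogen-dependent growth of human breast cancer cells. Its signal was 570.4, 1027, 929 and 356 in the tibolone animals, 178, 247, 227 and 167 in the CEE+MPA animals, 854, 865, 701 and 324 in the CEE animals and 365, 596, 178 and 201 in the control animals. The CEE+MPA animals were below every tibolone and every CEE animal and overlapped with the control animals. SUSD3 was higher with tibolone than with CEE+MPA by 1.64 ± 0.39 (limma, adjusted p = 0.0294). That call ended within the high spike-in set (1.43, adjusted p = 0.0710) and when CEE+MPA replicate 1, 3 or 4 or tibolone replicate 2 or 3 was left out (log2 fold changes of 1.44 to 1.69, limma). The difference was 1.04 without the 4 arrays of high skeletal muscle signal (limma, adjusted p = 0.522). The call was kept in 10 of 20 alternatives in all.

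The difference of CEE from control for SUSD3 was 1.06 ± 0.39 over all arrays (limma, adjusted p = 0.298), but 2.09 within the low spike-in set and 0.03 within the high set. The difference between the sets, high minus low, was -2.06 ± 0.63 and did not pass over all probe sets (limma, adjusted p = 0.937). The difference of CEE+MPA from CEE was -1.59 ± 0.39 over all arrays, -2.21 in the low set and -0.97 in the high set, and passed in none of the 3 (limma, adjusted p = 0.274, 0.522 and 0.569).

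IL17RB codes for a receptor of interleukins 17B and 25, and CA12 for a membrane carbonic anhydrase that faces the outside of the cell. Neither gene was called on any probe set in any of the 6 comparisons over all arrays. The brightest IL17RB probe set ranged from 86.6 to 119 in tibolone, 79.8 to 215 in CEE+MPA, 95.7 to 124 in CEE and 80.1 to 115 in control animals. On the second, tibolone and CEE+MPA differed by -0.60 ± 0.29 with overlapping animals (limma, adjusted p = 0.215). Within the high spike-in set this second probe set was called higher in CEE+MPA than in control, at 170 and 143 against 58.2 and 48.4. In the low set it had 116 and 56.6 in CEE+MPA and 85.5 and 111 in control animals. The difference between the sets, high minus low, was 1.53 ± 0.45 and did not pass over all probe sets (limma, adjusted p = 0.820). Across the 4 CA12 probe sets, the difference of CEE from control was 0.68 to 1.38 and that of CEE+MPA from CEE -0.60 to -0.34, so over all arrays the sign was the same on all 4 in each. The difference of CEE from control was 1.13 to 2.98 within the high spike-in set but -0.23 to 0.24 within the low set, where the sign was not the same on all 4. The difference between the sets, high minus low, was 3.22 ± 1.14 on the CA12 probe set with the widest gap and passed on none of the 4 (limma, adjusted p = 0.937 for that one). Over all arrays, the smallest adjusted p for CA12 was 0.359 in limma, for 0.81 ± 0.34 in CEE against control. Control replicate 3 had the highest CA12 signal of its group on all 4, for example 1105 on the brightest, against 558 to 619.5 in the other 3 control animals.

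GREB1 was set beside other genes tied to estrogen signalling in human cells. Of 38 further estrogen targets, 26 were measured above the filter. Limma called 0 of them in CEE against control, with 4 at an unadjusted p under 0.05, and their median log2 fold change was -0.09 against 0.01 over all genes. It called 0 in tibolone against control (2 at an unadjusted p under 0.05), 0 in CEE+MPA against CEE (6) and 0 in tibolone against CEE (3). Over all 10452 genes, 4 were called higher and 2 lower in CEE against control, and 1 and 0 in tibolone against control. The counts were 0 and 3 in CEE+MPA against CEE, and 0 and 0 in tibolone against CEE. In CEE+MPA against control, 2 of the 26 were higher and 4 lower (286 and 518 of all genes). In tibolone against CEE+MPA, 5 of the 26 were higher and 1 lower (416 and 352 of all genes). The medians of the list in these 2 comparisons were -0.01 and 0.20, against 0.01 in both over all genes. CXCL12, a chemokine that draws in leukocytes, fell by 1.88 ± 0.26 with CEE+MPA relative to control, and IGFBP4, a binding protein of insulin-like growth factors, by 1.11 ± 0.23 (limma, adjusted p = 0.00304 and 0.0140). CCN5, a matricellular growth regulator, fell by 1.73 ± 0.33 and FKBP4, a chaperone of steroid receptors, rose by 0.83 ± 0.15 (limma, adjusted p = 0.0105 and 0.00853). CXCL12 was at -1.44 ± 0.26 with CEE against control and just missed the threshold (limma, adjusted p = 0.0556). The part of the fibroblast markers, which were lower in the same CEE+MPA animals, in these falls was not tested. CXCL12, IGFBP4 and CCN5 were higher with tibolone than with CEE+MPA by 1.20 ± 0.26, 0.91 ± 0.23 and 1.25 ± 0.33 (limma, adjusted p = 0.0223, 0.0334 and 0.0391). FKBP4 was lower in that comparison by a log2 difference of -0.67 ± 0.15 (limma, adjusted p = 0.0243). CYP1B1, an estrogen-metabolizing enzyme, was higher with tibolone than with CEE+MPA by 1.05 ± 0.26, with overlapping animals (limma, adjusted p = 0.0302).

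Of 15 progesterone receptor targets, 9 were measured, with medians of 0.16, 0.25 and 0.55 in tibolone, CEE+MPA and CEE against control. STAT5A and CISH, a transcription factor of prolactin signalling and its feedback inhibitor, rose with CEE+MPA over control by 1.71 ± 0.33 and 1.83 ± 0.39 (limma, adjusted p = 0.0107 and 0.0157). With CEE alone their values were 1.56 ± 0.33 and 1.74 ± 0.39 and missed the threshold (limma, adjusted p = 0.0830 and 0.103). Limma called 0 of the 9 in CEE against control (4 at an unadjusted p under 0.05), 0 in tibolone against control (1), 0 in CEE+MPA against CEE (0) and 0 in tibolone against CEE (4). Calls over all 10452 genes, in the same order, were 4 higher and 2 lower, 1 and 0, 0 and 3, and 0 and 0. With CEE+MPA against control, 2 of the 9 were higher and 0 lower (286 and 518 of all genes). With tibolone against CEE+MPA, 1 was higher and 2 lower (416 and 352 of all genes). In tibolone against CEE+MPA, ZBTB16 was higher by 1.17 ± 0.34, while ELF5 and STAT5A were lower by log2 differences of -1.31 ± 0.33 and -1.24 ± 0.33 (limma, adjusted p = 0.0499, 0.0352 and 0.0402).

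The receptor genes gave dim signals where they were measured. ESR1, the gene of estrogen receptor alpha, had a signal of 31.4 to 55.7 in tibolone, 15.7 to 49.8 in CEE+MPA, 41.2 to 64.1 in CEE and 35.4 to 53.8 in control animals on its single probe set, was above the filter signal on 2 arrays and was not tested. ESR2, the gene of estrogen receptor beta, ranged from 68.2 to 134 in tibolone, 54.7 to 71.8 in CEE+MPA, 50.8 to 78.6 in CEE and 63.7 to 96.4 in control animals and was called in none of the 6 comparisons (3 at an unadjusted p under 0.05 in limma). FOXA1 had 1051, 2476.5, 1851 and 818 in the tibolone animals and 438, 372, 453 and 606 in the CEE+MPA animals, without overlap, a log2 difference of 1.58 ± 0.43 (limma, adjusted p = 0.0428). Its animals overlapped in the other comparisons, as did those of GATA3, XBP1 and NRIP1 in CEE and control. FOXA1 was highest in tibolone replicates 2 and 3, which had high skeletal muscle signal. Without the 4 arrays of high skeletal muscle signal, no probe set was called in tibolone against CEE+MPA. Among defining luminal markers, KRT19 was higher with CEE+MPA than in control by 0.63 ± 0.17 (limma, adjusted p = 0.0409), and KRT8, KRT18 and EPCAM were called in no comparison. KRT18 and KRT8 went the other way from KRT19, at -0.61 ± 0.23 and -0.43 ± 0.18 for CEE+MPA against control (limma, adjusted p = 0.119 and 0.155). EPCAM was at 0.32 ± 0.28 in the same comparison (limma, adjusted p = 0.538). TFAP2C, a luminal transcription factor, was called in no comparison.

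**Figure D5:**
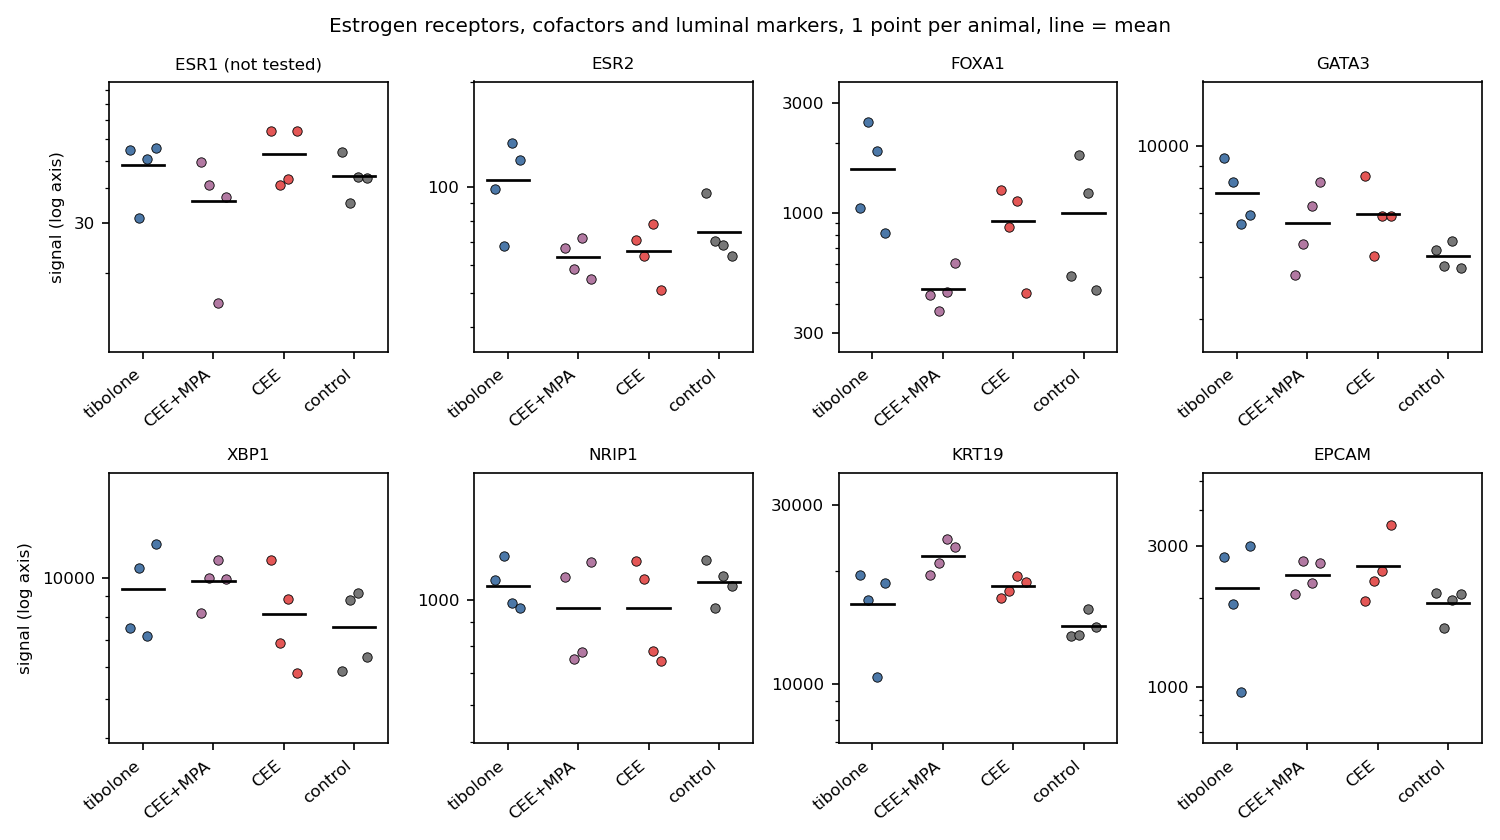
Signal on a log axis is plotted for 2 estrogen receptor genes, 4 cofactors or lineage factors and 2 luminal markers, with 1 point per animal and a line at the mean in tibolone, CEE+MPA, CEE and control animals. The 4 CEE+MPA animals of FOXA1, at 372 to 606, lie below all tibolone animals and overlap with the CEE and control animals, and ESR1 lies at 15.7 to 64.1 in all 16.

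Over the 16 arrays, the gene whose log2 signal followed GREB1 most closely among 10442 others was IGFBP1, with a Pearson r of 0.834 and a Spearman rho of 0.776. IGFBP1, a secreted binding protein of insulin-like growth factors, averaged 306 ± 68.7 in tibolone, 15.9 ± 10.1 in CEE+MPA, 1019 ± 885 in CEE and 57.8 ± 36.9 in control animals (SD, n = 4 each). CACNA2D4, a calcium channel subunit, and EEF2KMT, a methyltransferase of elongation factor 2, came next at r of 0.779 and 0.768. These correlations span the 4 groups and share their arrays, and they describe likeness of pattern only.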

How the data were processed

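The deposited table held linear intensity values (signals) of 52865 probe sets of an Affymetrix rhesus macaque array hybridised with biotin-labelled cynomolgus RNA from 16 animals; per the submitters' processing notes the tools were GCOS and Affymetrix Expression Console, and how the probes were summarised is not given in the sources used here. The deposited intensities of the arrays share a 2% trimmed mean. Probe differences between the species were not assessed. The values were turned into log2(signal + 16), whereas the authors deposited linear signals, and 99 Affymetrix control probe sets were left out. A probe set was tested when its signal exceeded the table median of 60.2 on at least 4 arrays. limma 3.58.1 in R 4.3.3 fitted 4 group means to 16 arrays, with 6 comparisons and Benjamini-Hochberg adjustment at 0.05 within each; the code was tested on simulated data. Symbols came from the platform annotation, which gave 1 symbol for 24969 probe sets, several for 361 and none for 27535. The cynomolgus RefSeq table holds each of the 10 symbols. A gene with several probe sets was represented by the tested one with the highest mean log2 value. Groups came from the labels, and replicate numbers follow the order of the samples and pair nothing. The number of arrays limits the precision.

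Besides the 10 genes, the text names a panel of receptors and cofactors (1 gene of it is not reported here), 4 luminal markers, the 4 genes of each target list with the smallest p among those past the threshold, and the 3 genes most correlated with GREB1. The members and all lists were chosen with earlier results of these data known. Alternatives covered normalization, the added constant, the filter, covariates, spike-in sets, the samples fitted and each array left out. No sequences are printed.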

Additional observations from a re-analysis of the deposited data

Results flagged for a closer look

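In 4 of 40 groups of 4 animals, 1 animal lay far from the other 3, by a gap of over 0.829 of the group's range; chance marks about 1 in 20 such groups. RERG was 97.1 in CEE replicate 2, against 141 to 152 in the other CEE animals. RBBP8 was 286 in CEE+MPA replicate 4, against 353 to 364 in the other CEE+MPA animals. CA12 was 1105 in control replicate 3, against 558 to 619.5 in the other control animals. MYB was 439 in tibolone replicate 3, against 193 to 211 in the other tibolone animals.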

How the results depend on the processing

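The 24 member gene differences with an unadjusted p under 0.05, a choice that favours clear differences, were each run under 19 to 21 alternatives, and none changed direction. Among the rest, some directions did change, and the following are examples and not a full list. In CEE against control, 1 CA12 probe set turned to -0.23 within the low spike-in set. In CEE+MPA against control, the bright MYB probe set was at 0.10 over all arrays. Within the low spike-in set its signal was 200 and 116 in CEE+MPA animals, against 274 and 264 in control animals. GREB1 in CEE against control was called in 20 of 20, with log2 fold changes of 2.26 to 3.70, and RERG in CEE+MPA against control in 19 of 20. GREB1 in CEE+MPA against control was called in 4 of 20 and RBBP8 in CEE against control in 8 of 21. The counts of called member probe sets that moved by over 1.5 times were as follows, and the cause was not tested unless fewer arrays or probe sets entered. In CEE against control the count was 1 with no filter, with the filter at the 75th percentile, with the luminal or skeletal muscle covariate, within the low and the high spike-in set and without the 4 arrays of high skeletal muscle signal (chosen after seeing the data). With the filter at the 75th percentile, where GREB1 and RERG were not tested, it was 0 in CEE+MPA against control, tibolone against control and CEE+MPA against CEE, and 1 in tibolone against CEE+MPA. In CEE+MPA against CEE it was 2 with the skeletal muscle covariate and 0 within the high set. In CEE+MPA against control it was 0 within the low set. In tibolone against control it was 0 within the high set and 0 without the 4 arrays. In tibolone against CEE+MPA it was 1 with only those groups fitted, 2 when the spike-in set was a block, 2 within the high set and 0 without the 4 arrays. Smaller moves were also seen. In CEE+MPA against control the count was 2 in place of 3 with quantile normalization, no filter, 64 added, only those groups fitted, either covariate and without the 4 arrays. Within the high set the count stayed at 3, but the 1 called higher was the second IL17RB probe set and not GREB1. In tibolone against CEE+MPA it was 3 in place of 4 with quantile normalization, median centring, no filter and the skeletal muscle covariate. Leaving out 1 array gave 1 to 2 calls in CEE against control, 2 to 3 in CEE+MPA against control, 1 in tibolone against control, 1 to 2 in CEE+MPA against CEE, 0 to 1 in tibolone against CEE (1 without tibolone replicate 4) and 0 to 5 in tibolone against CEE+MPA. Over all probe sets, the count of calls ranged over the alternatives from 2 to 66 in CEE against control (21 as reported), 0 to 2373 in CEE+MPA against control (1819), 0 to 10 in tibolone against control (7), 0 to 18 in CEE+MPA against CEE (6), 0 to 238 in tibolone against CEE (2) and 0 to 3333 in tibolone against CEE+MPA (1820). No paired analysis was possible because the labels number no replicates that the groups share. Signals near the filter limit PGR, the third RERG and the second MYB probe set.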
